A study of Arabidopsis thaliana with 6 samples.

Results

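Genes of the oxygen sensing pathway of Arabidopsis thaliana and some of its targets are described here, 10 of the 27416 loci with a deposited value. The loci comprise 4 group VII ethylene response factors (RAP2.2, RAP2.3, RAP2.12 and HRE2), the plant cysteine oxidases PCO1 and PCO2, the transcription factor genes HRA1 and LBD41, and the hypoxia responders HUP54 and AT4G10265. The loci were chosen by name, with their levels in wild-type and ucp1 ucp3 libraries already known from an earlier pass over these data. Their difference between the groups therefore selected them, and it is given as a description without a test. The reads of each locus are the estimated counts summed over its transcript models.

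The study sequenced polyadenylated RNA of 21-day-old plants of the Columbia ecotype, sampled as vegetative tissue under normal growth on MS medium. Wild-type plants and ucp1 ucp3 double mutants, in which 2 genes for mitochondrial uncoupling proteins carry mutations, gave 3 libraries each. The labels name no allele, no low-oxygen treatment and no batch, and they call the libraries of a group biological replicates without saying how these were separated. P-values therefore measure the spread between these libraries, which may be technical in part.

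In plants, oxygen is sensed through the stability of the group VII ethylene response factors. Their second residue is a cysteine, which is exposed when the first methionine is removed, oxidised by plant cysteine oxidases where oxygen is present, arginylated, and then read by the ubiquitin ligase PRT6 as a signal for degradation. When oxygen falls the factors persist and activate a set of hypoxia-responsive genes. These include enzymes of fermentation and sugar use, and also PCO1, PCO2, HRA1, LBD41 and HUP54.

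The sequence read by this pathway lies at the start of the coding region, so the first bases of the factors are shown, from the RefSeq annotation of TAIR10.1. The second codon is in capitals. HRE1, the remaining factor of the group, is set beside the 4 members, with the start of its models 2 and 3.
RAP2.2: atgTGTggaggagctataatctccgatttc
RAP2.12: atgTGTggaggagctataatatccgatttc
RAP2.3: atgTGTggcggtgctattatttccgattat
HRE2: atgTGTgggggagctatcatttctgatttc
HRE1: atgTGCggaggagctgtaatttccgattac
RAP2.2 and RAP2.3 lie on chromosome 3, RAP2.12 and HRE1 on chromosome 1 and HRE2 on chromosome 2. TGT and TGC are the cysteine codons, and all 3 annotated models of RAP2.2 and of RAP2.12 begin with the start shown. HRE1 model 1 starts elsewhere and has TCT, not a cysteine codon, as its second codon. In the annotation, 290 of 27477 loci with a coding start had a cysteine second codon, a share of 1.06%. With synonymous codons allowed, the first 6 codons of the 4 members encode the same residues, and they were found in 4 loci, which are these 4. The other 6 members have a different residue there: the second codon is GGG in PCO1, GGA in PCO2, GAA in HRA1, CGG in LBD41, TTG in HUP54 and AGC in AT4G10265.

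Library totals lay between 1183600 and 11296133 reads assigned to loci, a 9.54-fold range, and ucp1 ucp3 replicate 3 was the shallowest. It also lay apart in a principal component analysis of log2 CPM, at 59.3 on the leading axis (47.0% of the variance), where the other 5 lay at -28.8 to 9.42. A count of 3, taken as the detection floor, corresponds to 0.264 to 0.831 CPM in 5 libraries and to 2.71 CPM in that one. CPM are reads scaled to the TMM-adjusted library size, and TPM are the deposited values per transcript length. The targeted transcripts were present in both groups, and edgeR put UCP1 at -0.35 (log2; adjusted p = 0.226) and UCP3 at -0.49 (log2; adjusted p = 0.224). Every ucp1 ucp3 library lay below every wild-type library in CPM for both genes, as in 12.4% of tested genes. Transcripts that are still present do not check the labels. The mutant libraries are therefore called labelled mutants, and each direction rests on the labels. Summed over 5 leaf markers the level ranged from 24150 to 25660 CPM over wild-type libraries and from 25500 to 32300 CPM over labelled mutants. Summed over 8 root markers it was 138 to 174 CPM against 152 to 207 CPM, with none of the 8 at 0. Of 6 flower markers, 4 were at 0 in at least 1 library, and the sum of the 6 was 15.6 to 16.9 CPM against 15.1 to 19.9 CPM. SEP3 alone gave 9.83 to 14.2 CPM of it. The sums hide single markers that differed. The leaf markers RCA, LHCB3 and PSBO1, the root marker PER64 and the flower markers AP1 and AP3 were higher in every labelled mutant. All other markers overlapped, and AP1 and AP3 had 2 reads or fewer in each wild-type library. The part of tissue make-up in the values below was not tested, and in bulk tissue fewer cells of a type and less RNA per cell cannot be told apart.

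The members with enough reads to be fitted were 9, all but HRE2. Over all 17415 tested genes 0.781% were called higher and 0.482% lower by edgeR at an adjusted p under 0.05, which is 136 and 84 genes. With library totals in place of TMM the split was 109 to 110. In CPM, no overlap between the groups was seen in 2 members that were higher, HUP54 and RAP2.12. The same held for 4 that were lower, RAP2.2, HRA1, LBD41 and AT4G10265. In TPM the groups overlapped for RAP2.12. Of all tested genes, 11.2% and 12.4% did not overlap in CPM in these directions. The choice of the members used this contrast, so nothing is read from these shares. The median log2 fold change of the 9 was -0.02, beside -0.00 over all tested genes.

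**Figure D1:**
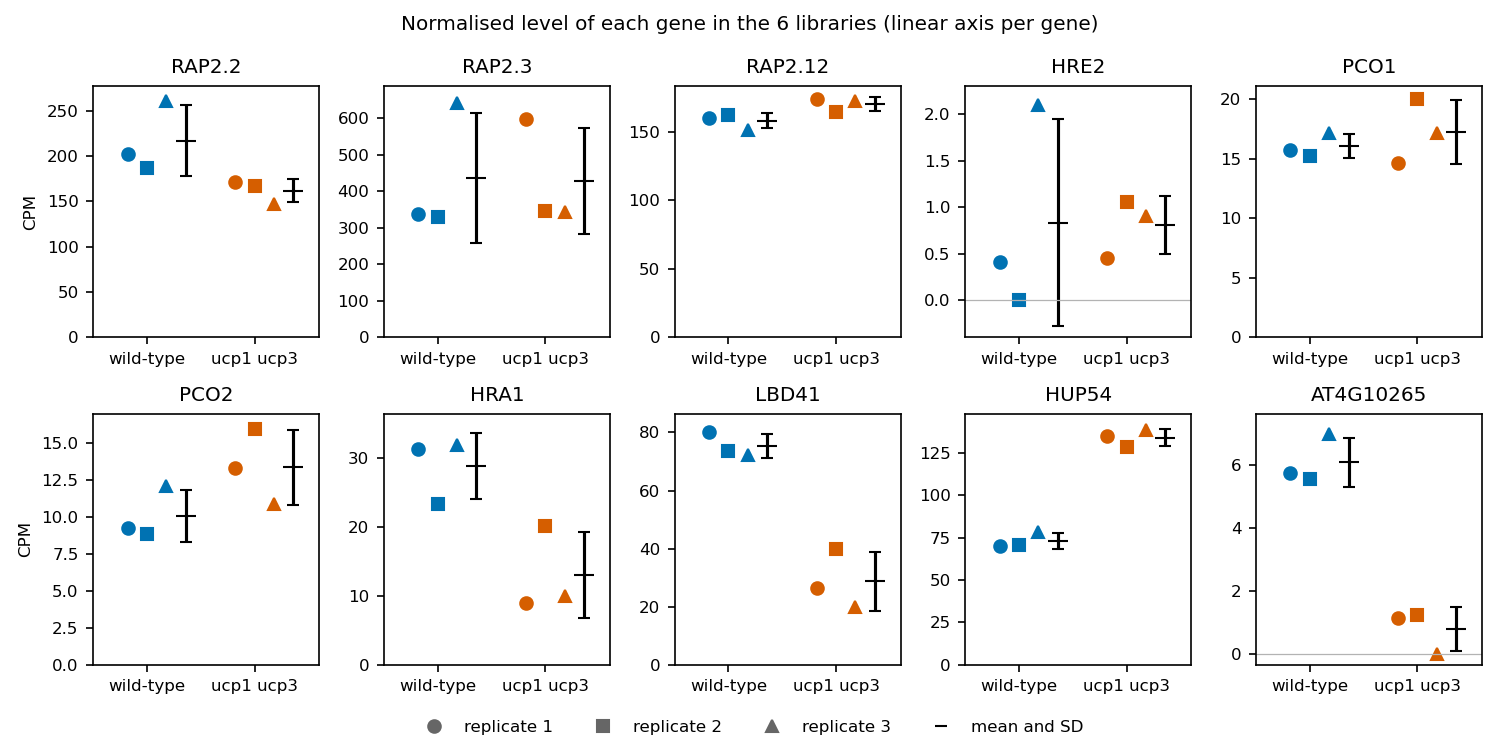
Level of each of the 10 genes in every library, in CPM on a linear axis, with the mean and SD of 3 libraries per group beside the points. LBD41, HRA1, RAP2.2 and AT4G10265 lie lower and HUP54 and RAP2.12 lie higher in all 3 libraries labelled ucp1 ucp3, and the groups overlap for RAP2.3, HRE2, PCO1 and PCO2.

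RAP2.2 (AT3G14230) encodes one of the factors that are made in air and held back by degradation. Its level was 202, 187 and 261 CPM in wild-type replicates 1 to 3, and 171, 167 and 147 CPM in the labelled mutants. All 3 labelled mutants lay below all 3 wild-type libraries, and wild-type replicate 3 stood above its group. The means were 217 ± 39.0 and 162 ± 12.7 CPM (SD, n = 3), a log2 fold change of -0.41 ± 0.13 (SE). When 1 library was left out in turn, the estimate for RAP2.2 ranged from -0.51 to -0.26, with the smallest difference without wild-type replicate 3.

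RAP2.3 (AT3G16770), another factor made in air, had 339, 329 and 643 CPM in wild-type libraries and 597, 345 and 342 CPM in labelled mutants. One library of each group was far above the rest, wild-type replicate 3 and labelled mutant replicate 1, and the groups overlapped. The log2 fold change was -0.02 ± 0.37 (SE). Without wild-type replicate 3 it was 0.37 and without labelled mutant replicate 1 it was -0.35, so no direction can be given for RAP2.3.

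RAP2.12 (AT1G53910) encodes the factor best known for binding to ACBP proteins at the plasma membrane in air. It had 160, 162 and 152 CPM in wild-type libraries and 174, 165 and 172 CPM in labelled mutants. The labelled mutants were all higher in CPM, by a margin that was small beside its level. In TPM the groups overlapped, with 122, 126 and 114 in wild-type and 120, 124 and 121 in the labelled mutants. The log2 fold change was 0.11 ± 0.10 (SE), and 0.04 when library totals replaced TMM. Of the 31-mers of the RAP2.12 mRNA, 19.1% are also present antisense in the mRNA of AT1G53887, and the strand setting of the quantification is not given, so part of its reads may belong to that locus.

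HRE2 (AT2G47520), a factor whose transcript is itself induced by low oxygen, was near the counting floor. It had 2, 0 and 9 reads in wild-type and 2, 12 and 1 reads in the labelled mutants, which is 0.409, 0 and 2.09 CPM and 0.457, 1.06 and 0.903 CPM. Only wild-type replicate 3 and labelled mutant replicate 2 exceeded 3 reads, the groups overlapped, and no difference was detectable at this depth.

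Per transcript length, RAP2.3 made up most of the group VII transcripts in every library. The 5 factors, HRE1 included, summed to 677, 680 and 1053 TPM in wild-type and to 876, 659 and 609 TPM in the labelled mutants. RAP2.3 held 56.8%, 56.3% and 68.6% of that sum in wild-type and 69.8%, 58.6% and 58.7% in the labelled mutants. The high total of wild-type replicate 3 and of labelled mutant replicate 1 follows RAP2.3. RAP2.2 exceeded RAP2.12 in TPM in all 3 wild-type libraries, by 1.23, 1.12 and 1.68 times. The same ratio of TPM was 0.953, 0.984 and 0.830 in the labelled mutants, where RAP2.12 was the higher of the pair each time.

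**Figure D2:**
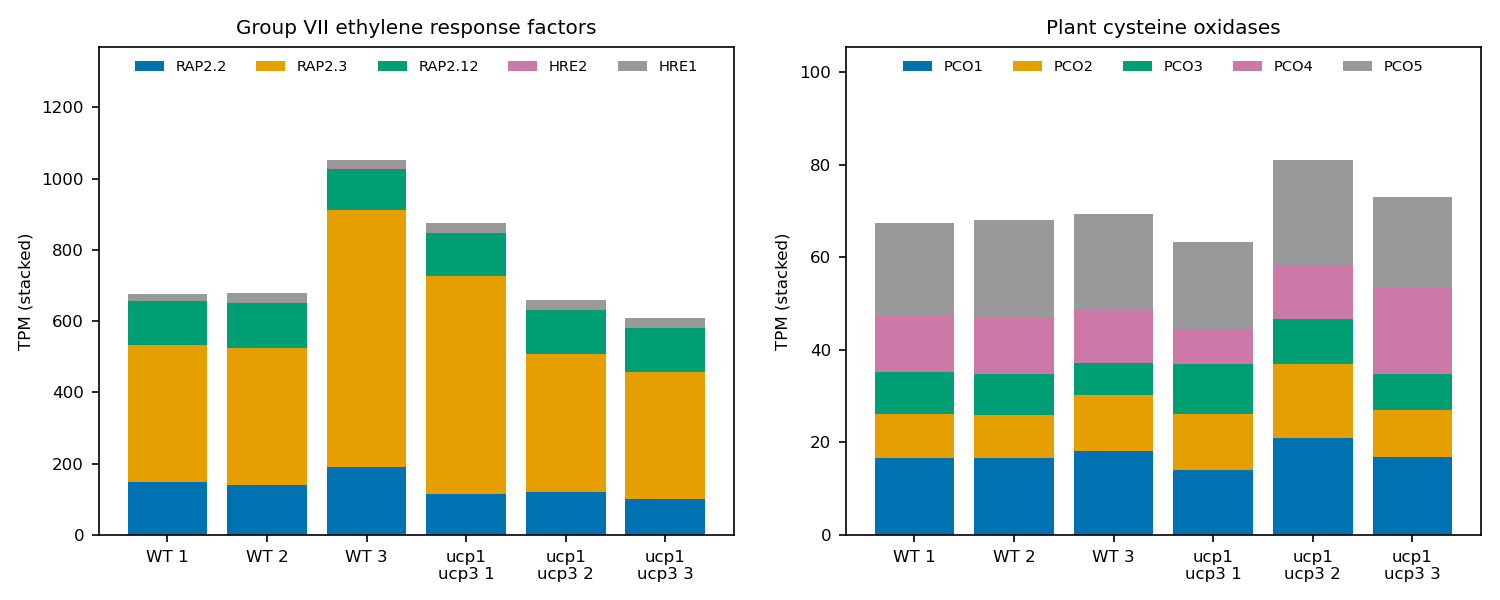
Stacked TPM of the group VII ethylene response factors (left) and of the plant cysteine oxidases (right) in each of the 6 libraries, labelled WT for wild-type. RAP2.3 is the largest segment of every left bar, and the right bars lie between 63.4 and 81.1 TPM.

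RAP2.2 and RAP2.12 are the members with more than 1 deposited transcript model, 3 each. Inside the coding region the models differ by a few bases at 1 splice junction. Bases that are not in every model are in capitals, in 60 bases around the junction from the same annotation.
RAP2.2 model 1: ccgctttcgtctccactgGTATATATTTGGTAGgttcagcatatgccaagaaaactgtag
RAP2.2 model 2: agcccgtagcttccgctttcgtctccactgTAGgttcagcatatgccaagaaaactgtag
RAP2.2 model 3: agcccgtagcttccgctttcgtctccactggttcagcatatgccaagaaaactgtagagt
RAP2.12 model 1: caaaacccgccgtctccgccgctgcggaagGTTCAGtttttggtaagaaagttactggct
RAP2.12 model 3: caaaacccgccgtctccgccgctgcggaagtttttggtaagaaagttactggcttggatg
Model 1 of RAP2.2 carries 15 bases that model 3 lacks and model 2 carries 3, and RAP2.12 model 3 lacks the 6 bases of its models 1 and 2. All of these numbers are multiples of 3, so the reading frame is kept. Model 2 of RAP2.2 received 80.3%, 88.8% and 86.2% of the locus's estimated reads in wild-type and 85.2%, 84.8% and 100% in the labelled mutants. Model 3, without the extra bases, received 17.7%, 11.2% and 11.01% in wild-type and 13.6%, 14.3% and 0% in the labelled mutants. For RAP2.12, model 1 took 95.6%, 97.9% and 100% in wild-type and 93.9%, 97.1% and 100% in the labelled mutants. The leading model was the same in all 6 libraries for both genes. The library with 100% on 1 model for both was the shallowest, where RAP2.2 had 163 reads and RAP2.12 had 191, and the models also differ at their ends. RAP2.12 model 2 has the coding region of model 1 and an added intron after it, and it received 0% in wild-type and 4.74%, 1.74% and 0% in the labelled mutants.

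**Figure D3:**
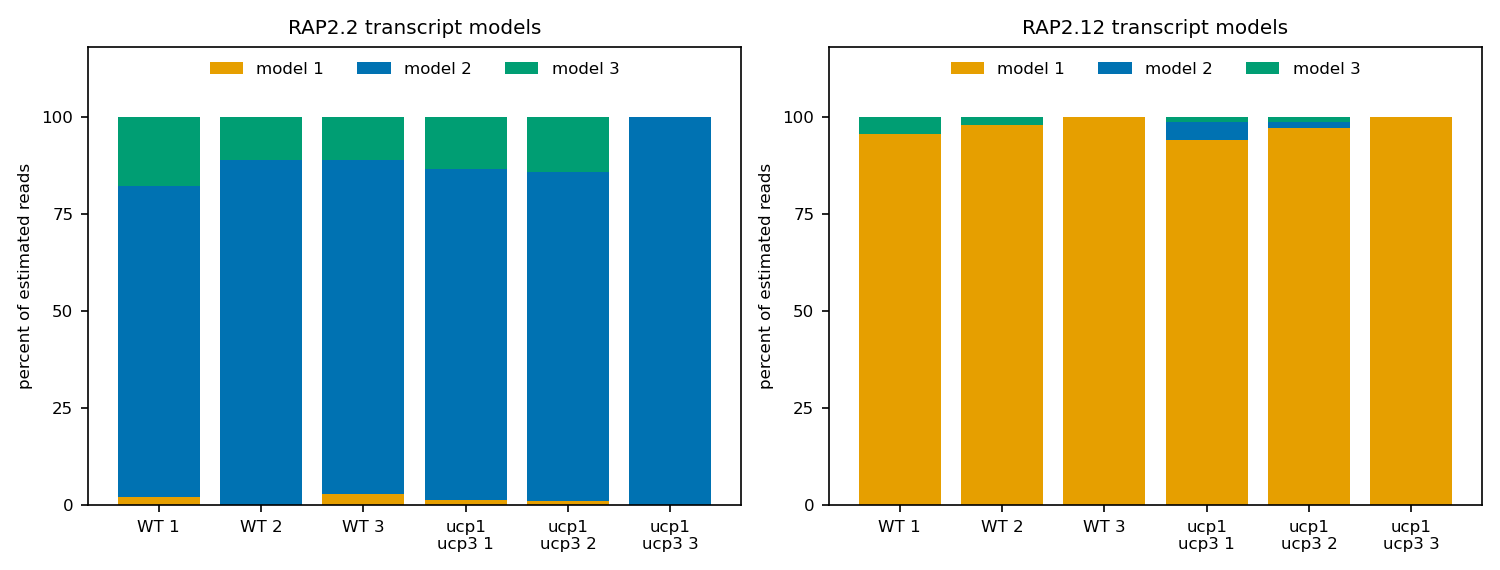
Share of each locus's estimated reads, in percent, that was assigned to each transcript model of RAP2.2 (left) and RAP2.12 (right) in the 6 libraries. Model 2 leads for RAP2.2 and model 1 for RAP2.12 in every bar.

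PCO1 (AT5G15120) and PCO2 (AT5G39890), on chromosome 5, encode the cysteine oxidases whose transcripts rise in low oxygen, and their coding sequences share 63.8% of bases. PCO1 had 15.8, 15.2 and 17.2 CPM in wild-type libraries and 14.6, 20.0 and 17.2 CPM in labelled mutants. The labelled mutants held both the lowest and the highest of the 6 values. The log2 fold change of PCO1 was 0.14 ± 0.17 (SE), and it was -0.07 without labelled mutant replicate 2.

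PCO2 had 9.21, 8.87 and 12.1 CPM in wild-type libraries and 13.3, 15.9 and 10.8 CPM in labelled mutants, with 12 to 181 reads behind each value. Labelled mutants 1 and 2 lay above all wild-type libraries, and labelled mutant 3 lay below wild-type replicate 3. The log2 fold change was 0.50 ± 0.20 (SE), and 0.32 to 0.65 when 1 library was left out. PCO1 exceeded PCO2 in TPM in every library, by 1.79, 1.80 and 1.49 times in wild-type and by 1.16, 1.32 and 1.66 times in the labelled mutants.

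The 5 oxidase genes together gave 67.4, 68.1 and 69.3 TPM in wild-type and 63.4, 81.1 and 73.2 TPM in the labelled mutants. PCO1 held 22.2% to 26.1% of that sum and PCO2 13.5% to 19.6% over the 6 libraries. PCO5, one of the oxidases made in air, held 26.9% to 31.2%, and the summed transcripts of the oxidases were below those of the factors in every library.

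HRA1 (AT3G10040, chromosome 3) encodes a trihelix factor that binds RAP2.12 and limits its activity. It had 31.3, 23.3 and 31.8 CPM in wild-type libraries and 8.91, 20.1 and 9.93 CPM in labelled mutants. All labelled mutants lay below wild-type, but replicate 2, the deepest library, lay much closer to it than the other 2. The means were 28.8 ± 4.81 and 12.99 ± 6.21 CPM (SD, n = 3). The log2 fold change of -0.97 ± 0.28 (SE), fitted by edgeR to the counts, corresponds to 51.1% of wild-type. It is not the ratio of these means, which is lower. Without labelled mutant replicate 2 the log2 fold change was -1.66, and without replicate 1 it was -0.69. HRA1 had 39, 229 and 11 reads in the labelled mutants.

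LBD41 (AT3G02550, chromosome 3), a LOB-domain transcription factor gene and a standard marker of low oxygen, was lower in the labelled mutants. It had 80.0, 73.7 and 72.3 CPM in wild-type libraries and 26.5, 39.9 and 19.9 CPM in labelled mutants. The wild-type libraries lay close together, the labelled mutants were spread 2.01-fold, and the groups were well apart. The means were 75.3 ± 4.13 and 28.8 ± 10.2 CPM (SD, n = 3). The log2 fold change fitted by edgeR was -1.25 ± 0.18 (SE), or 42.0% of wild-type, where the ratio of these means is lower. Leaving out 1 library moved the estimate between -1.62, without labelled mutant replicate 2, and -1.12. LBD41 exceeded HRA1 in TPM in all 6 libraries, by 2.79 to 3.89 times in wild-type and by 2.43 to 3.64 times in the labelled mutants.

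HUP54 (AT4G27450, chromosome 4), a hypoxia-responsive gene of the aluminium-induced protein family, was higher in the labelled mutants, with little spread in either group. It had 70.0, 70.6 and 78.1 CPM in wild-type libraries and 135, 128 and 138 CPM in labelled mutants. Every labelled mutant lay far above every wild-type library, including the shallow replicate 3 with 153 reads. The means were 72.9 ± 4.50 and 134 ± 4.92 CPM (SD, n = 3), a log2 fold change of 0.87 ± 0.11 (SE), or 1.83-fold. Over all alternatives, scalings included, the estimate for HUP54 lay between 0.81 and 0.92. Antisense to the mRNA of AT4G27440 were 3.07% of its 31-mers.

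AT4G10265 (chromosome 4), a short gene of the wound-responsive protein family with a coding region of 252 bases, had 5.73, 5.54 and 6.97 CPM in wild-type libraries and 1.14, 1.23 and 0 CPM in labelled mutants. That is 28, 20 and 30 reads against 5, 14 and 0. Every labelled mutant lay below every wild-type library. A count of 0 in replicate 3 allows a level of up to 2.71 CPM, which is still below the lowest wild-type value. The log2 fold change was -2.44 ± 0.38 (SE), and -2.32 without that library. Its neighbour AT4G10270, on the opposite strand with no locus between them, shares 72.2% of coding bases with it, but only 0.159% of the 31-mers of AT4G10265 occur in another gene's mRNA on each strand.

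**Figure D4:**
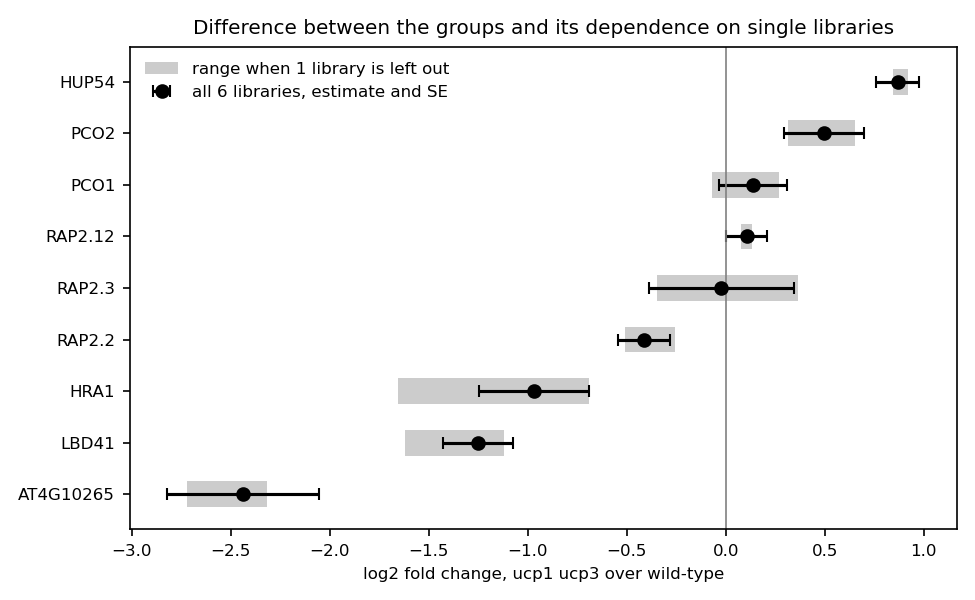
Log2 fold change, libraries labelled ucp1 ucp3 over wild-type, of the 9 members that could be fitted, with the SE as error bars and a grey band for the range when each of the 6 libraries is left out. The bands of RAP2.3 and PCO1 cross 0, that of HUP54 spans 0.85 to 0.92, and that of HRA1 spans -1.66 to -0.69.

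The members differed widely in how much replicates varied. Among the 12473 tested genes that averaged 10 CPM or more, the median ratio of the highest to the lowest replicate was 1.20 in wild-type and 1.28 in the labelled mutants. RAP2.12 stayed below both, at 1.07 and 1.05, as did HUP54 at 1.12 and 1.08. RAP2.3 was above both, at 1.96 and 1.75. HRA1 and LBD41 had ratios of 1.37 and 1.11 in wild-type and of 2.26 and 2.01 in the labelled mutants.

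The order of the members by mean TPM changed between the groups in the middle of the list. In wild-type, RAP2.3 led with 496 TPM, followed by RAP2.2 with 160, RAP2.12 with 120, HUP54 with 82.0, LBD41 with 67.6, AT4G10265 with 24.5, HRA1 with 21.0, PCO1 with 17.1, PCO2 with 10.2 and HRE2 with 1.74 TPM. Neighbours overlapped there only for AT4G10265 with HRA1 and for HRA1 with PCO1. In the labelled mutants the order of mean TPM was RAP2.3 at 452, HUP54 at 140, RAP2.12 at 122, RAP2.2 at 112, LBD41 at 24.4, PCO1 at 17.3, PCO2 at 12.7, HRA1 at 9.03, AT4G10265 at 2.90 and HRE2 at 1.59 TPM. The neighbours RAP2.12 and RAP2.2, LBD41 and PCO1, PCO1 and PCO2, PCO2 and HRA1, and AT4G10265 and HRE2 overlapped. HUP54 and LBD41, close in wild-type, moved apart. The TPM ratio of HUP54 to LBD41 was 1.10, 1.20 and 1.36 in wild-type and 6.35, 4.03 and 8.69 in the labelled mutants.

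In the 1000 bases before the annotated gene start, 3 short motifs were searched on both strands. The G-box CACGTG, which also holds the ACGTG core of the abscisic acid response element, was present in PCO2 and LBD41, 2 of 10 members, and in 14.8% of all 27443 protein-coding loci. The GCC-box GCCGCC was present in HRE2, 1 of 10, and in 8.44% of all loci. The GT motif AAACCA, part of the anaerobic response element described in ADH1, was present in 9 of 10 members, all but PCO1, and in 71.8% of all loci. LBD41 held it at 4 places. The G-boxes lay 154 bases before the start of LBD41 and 539 before that of PCO2, and are in capitals in their surroundings, which differ.
LBD41: gagcgtggaggcCACGTGtcttatcacagt
PCO2: cccattattctaCACGTGtttggtacacac
A match describes these letters only, and the members with a G-box did not share a direction, since LBD41 was lower and PCO2 overlapped between the groups.

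For LBD41 and HUP54, the genes of most similar pattern were found among 12472 genes averaging 10 CPM or more, by the root-mean-square difference of centred log2 CPM over the 6 libraries. Nearest to LBD41 was ABCG42, an ABC transporter gene, at a difference of 0.226, with 66.5, 54.0 and 72.5 CPM in wild-type libraries and 27.4, 41.1 and 23.5 CPM in labelled mutants. AT4G10270, the neighbour of AT4G10265, came next at 0.251 and then GASA1, a gibberellin-regulated gene, at 0.253. HRA1 ranked 9 in nearness to LBD41, at 0.264, and HUP54 was among the farthest. Nearest to HUP54 was MSS1, a hexose transporter gene, at 0.0733, with 56.1, 56.2 and 59.96 CPM in wild-type libraries and 98.0, 109 and 116 CPM in labelled mutants. CYP79B3, an enzyme gene of indole glucosinolate synthesis, followed at 0.0902 and GASA4, a gibberellin-regulated gene, at 0.120. The member nearest to HUP54 was PCO2, at rank 860.

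The rest of the oxygen sensing pathway was read from 17 further genes, for HRE1, the other 3 oxidases, methionine aminopeptidases, arginyl transferases, PRT6 and its partner BIG, further cysteine-start targets, the membrane anchors ACBP1 and ACBP2, and the ligases SINAT1 and SINAT2. Of the 16 tested, all but ZPR2, 0 were called higher and 0 lower in the edgeR fit, beside 0.781% and 0.482% of all tested genes. An unadjusted p under 0.05 was seen in 1 of them, beside 2857 of all 17415 tested genes. The count of calls stayed at 0 over all alternatives, but DESeq2 did not judge every gene. It gave no adjusted p to PCO1 and PCO2. List genes with a lower mean count than PCO1, such as PCO3 and ATE2, could therefore not be called by DESeq2. The shares over all genes leave little room for calls among 16 genes, so these counts do not show an unchanged pathway. The median log2 fold change was -0.01, and the values ran from -0.30 to 0.38. The smallest p was that of MAP1A, an aminopeptidase that removes the first methionine, at 44.8, 49.0 and 48.6 CPM in wild-type libraries and 39.8, 40.7 and 30.7 CPM in labelled mutants. Its log2 fold change was -0.30 ± 0.13 (SE), with an edgeR adjusted p of 0.257. The next were ACBP2 at 0.38, PCO3 at 0.31 and MAP2A at 0.22, with edgeR adjusted p-values of 0.353, 0.447 and 0.454. ATE1, an arginyl transferase gene, and PRT6 were at log2 fold changes of -0.02 and -0.00.

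Among 35 further genes that respond to low oxygen, 32 were tested, and AT5G10040, ARD3 and AT2G17850 had too few reads. In the edgeR fit, 1 was called higher, 0 were called lower and 31 did not pass, beside the 0.781% and 0.482% of all genes. This list and the oxygen sensing list were chosen with earlier results of these data known, so their calls are no independent test. At an unadjusted p under 0.05 there were 14 of 32, of which 10 were higher and 4 lower, beside 2857 of all 17415 genes, of which 1400 were higher and 1457 lower. The estimates were split 16 above and 16 below 0, with a median of 0.02, and the libraries of the groups were apart in 7 that were higher and 3 that were lower, where 11.2% and 12.4% of all tested genes were.

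The called gene was NIP2;1, an aquaporin-family gene known as a lactic acid channel. It had 0.614, 0.554 and 1.16 CPM in wild-type libraries and 4.57, 3.87 and 2.71 CPM in labelled mutants. Its estimate was 2.31 ± 0.44 (log2, SE; edgeR adjusted p = 0.0230). It rose from at most 5 reads in each wild-type library to 20, 44 and 3 reads, so labelled mutant replicate 3 was at the floor, and 57.2% of its 31-mers are found antisense in the mRNA of some other gene and 14.1% in sense. The omission of wild-type replicate 1 or of labelled mutant replicate 1 or 3 each ended its call. The stricter filter, at least 10 reads in every library of a group, removed NIP2;1 before the test. DESeq2, which gave no adjusted p to PCO1 with its higher counts, could not call NIP2;1 either. The 1 gene of the list that DESeq2 called was AT1G19530, as higher. Next by p on the log2 scale were AT1G19530 at 0.81 (edgeR adjusted p = 0.0622), AT1G33055 at -0.78 (0.0967) and the phloem lectin-type gene PP2-A13 at 0.54 (0.101). For PP2-A13, 31.2% of 31-mers were likewise antisense to a different mRNA.

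ADH1 and SUS4, chosen for naming after their values were seen, had wide wild-type groups. ADH1, the alcohol dehydrogenase gene, had 31.1, 42.7 and 79.7 CPM in wild-type libraries and 108, 131 and 129 CPM in labelled mutants. Its estimate of 1.26 ± 0.35 (log2, SE) did not pass (edgeR adjusted p = 0.162). SUS4, a sucrose synthase gene, had 7.16, 11.9 and 32.1 CPM and 38.4, 48.4 and 56.0 CPM, and its estimate of 1.44 ± 0.56 (log2, SE) did not pass (edgeR adjusted p = 0.300). In both genes the labelled mutants were all above wild-type, and wild-type replicate 3 was the wild-type library nearest to them.

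Wild-type replicate 3 was the highest wild-type library in 26 of the 32 tested hypoxia genes, or 81.3%, and in 8 of the 10 members, all but RAP2.12 and LBD41. It was so in 35.4% of all tested genes. Without that library, 7 of the hypoxia genes were called higher and 0 lower by edgeR: ADH1, SUS4, PDC1, PGB1, SAD6, AT1G19530 and NIP2;1. Over all 17823 genes tested without it, 100 were called higher and 44 lower. Leaving out the highest wild-type library of a gene raises that gene's estimate in advance. Nothing is therefore read from the 7 calls. The part of wild-type replicate 3 in the difference between the groups was measured only by leaving it out.

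AT4G10270, the neighbour of AT4G10265 and also of the hypoxia list, had 16.2, 15.5 and 17.0 CPM in wild-type libraries and 7.77, 12.8 and 5.42 CPM in labelled mutants. All labelled mutants lay lower, and the estimate of -0.68 ± 0.22 (log2, SE) did not pass (edgeR adjusted p = 0.139). The share of its 31-mers that were antisense to other mRNAs was 90.2%, so its reads cannot be told apart from theirs without the strand setting.

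**Figure D5:**
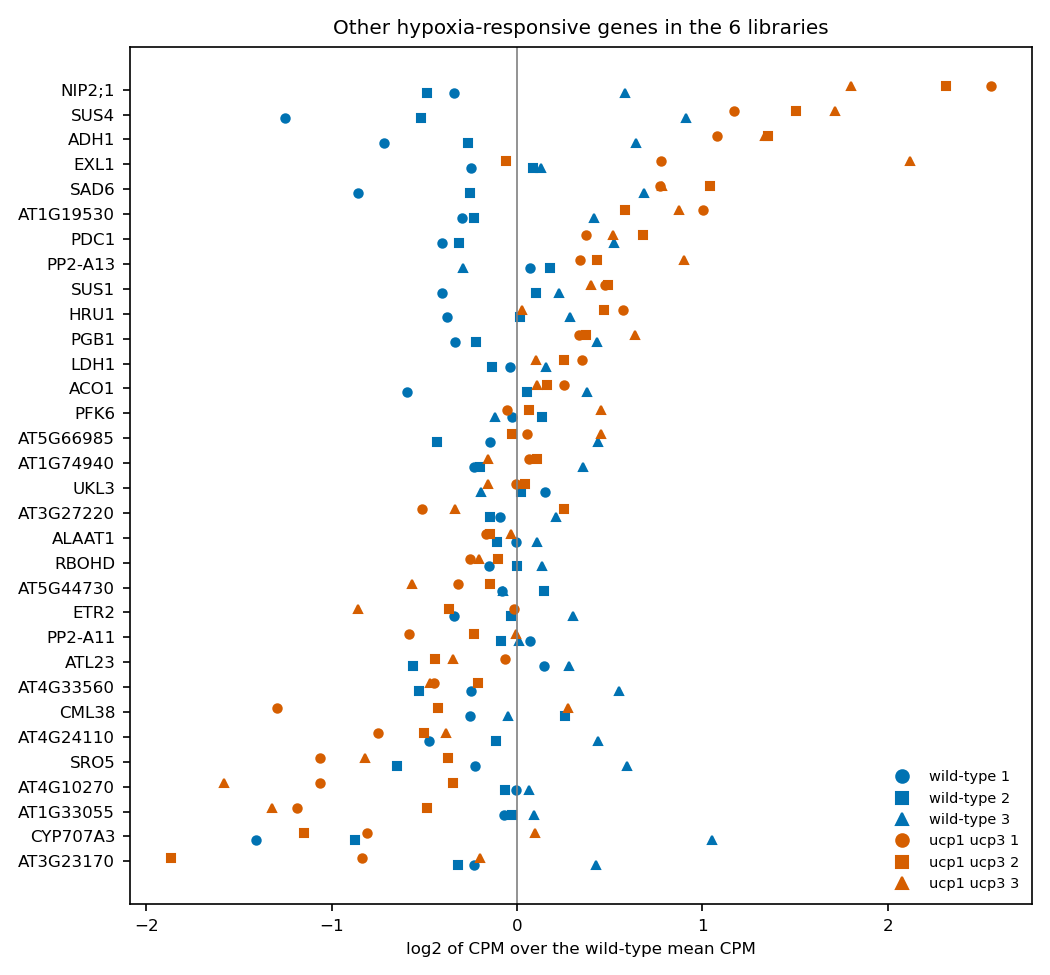
The 32 tested further hypoxia-responsive genes, each library's CPM over the wild-type mean on a log2 axis, with wild-type in blue and the libraries labelled ucp1 ucp3 in orange, ordered by the difference between the groups. NIP2;1, SUS4 and ADH1 lie at the top, and the triangle of wild-type replicate 3 is the rightmost blue point in 26 of 32 rows.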

How the data were processed

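The authors deposited 1 table per library with estimated counts and TPM per transcript model, per the file headers. Kallisto, DESeq2 and TAIR10 are named, per the submitters' processing notes, without tool versions. The libraries were made with a stranded Illumina mRNA kit, per the labels' protocols. The transcript index and the strand setting are not given in the sources used here.

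Estimated counts of 35386 models were summed to 27416 loci and rounded to whole numbers. Genes were tested with the robust quasi-likelihood F test of edgeR 4.0.16 in R 4.3.3 (default filter, TMM, genotype only), adjusted over 17415 genes by Benjamini-Hochberg. Log2 fold changes are edgeR estimates from the counts, not ratios of mean CPM. The SE is the estimate over the square root of F. Deposited TPM were summed per locus for levels and shares. Floors cover counting error only.

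The members and the 2 lists were chosen with earlier results of these data known. The text names all members, UCP1, UCP3, the called genes of each list and those of smallest p up to 4, and the 3 nearest to LBD41 and HUP54. ADH1, SUS4, PDC1, PGB1, SAD6, HRE1, PCO5, ATE1, PRT6 and AT4G10270 in its list were added after their values were seen. RefSeq sequences of TAIR10.1 gave coding starts, junctions, motifs and shared 31-mers. Its coordinates are not printed, because the build named is TAIR10.

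The procedure was tested on simulated counts with known changes. It recovered 24.5% of the tested 1.5-fold changes, 77.1% of 2-fold, 97.9% of 3-fold and 100% of 4-fold changes. A gene that did not pass may therefore still differ. Of the procedure's 160 calls 18 were false, a share above the threshold of 0.05. A call may therefore be less secure than its adjusted p states. Alternatives were RLE, library totals, no filter, a minimum of 10 reads, DESeq2 1.42.0, limma-voom (3.58.1), a replicate block and leaving out each library.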

Additional observations from a re-analysis of the deposited data

How the results depend on the processing

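Of 117 estimates for members under 13 alternatives, 113 moved by less than 1 SD between replicates and 4 by more. RAP2.3 changed sign in 5 alternatives and PCO1 in 1, and no other member did. Over all genes, 267 were higher and 223 lower with no filter, and 229 and 158 with DESeq2. With 1 library left out the counts ranged from 31 to 326 higher and 16 to 347 lower: 31 and 22 without wild-type replicate 1, 126 and 136 without 2, 100 and 44 without 3, and 46 and 16, 326 and 347, and 54 and 19 without labelled mutant replicates 1, 2 and 3. In the hypoxia list 2 genes were higher with no filter and 0 with the stricter filter, which removed NIP2;1. With 1 library left out 0 to 7 were higher and 0 to 2 were lower (AT1G33055 and AT4G10270, without labelled mutant replicate 2). With a replicate block 122 genes were higher and 45 lower, 4 of them higher in the hypoxia list (ADH1, SUS4, AT1G19530 and NIP2;1). Same-numbered libraries did not deviate together over all fitted genes (r = -0.07, -0.10 and -0.01), and no library's best correlation was with its own number. Such correlations cannot exclude a batch shared by same-numbered libraries that touched only some genes. The cause of these changes was not tested. The depth of the third labelled mutant limits HRE2, AT4G10265 and NIP2;1.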
